A study of Mus musculus with 14 samples.

Results

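DNA replication genes encode the proteins that mark, open and copy the genome in S phase. The group described here holds 44 listed genes, from origin recognition to chromatin assembly. They were chosen by their role and by name, not by a measured value, though with earlier results of these data known. A probe set was present for 42 of them, among 12393 genes with one. Each gene was read from the probe set with the highest mean over the 14 arrays. Gins2, a subunit of the replicative helicase, and Chaf1a, a subunit of chromatin assembly factor 1, had none and were not analysed here. All 42 genes exceeded the filter on dim probe sets, as did 8608 genes in all.

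The study asked how loss of Dnmt1, which restores CpG methylation on newly made strands, changes gene expression in blood-forming cells. All mice were Dnmt1fl/fl on a C57BL/6 background and 8 to 12 weeks of age, and knockouts and controls alike were injected 7 times with poly(I)poly(C) (25 ug/kg). Knockout mice carried the Mx-Cre transgene, whose interferon-responsive promoter makes Cre after poly(I)poly(C) in blood cells and also in other tissues. Control mice lacked it, and 4 days passed between the last injection and the harvest. Per the labels, lineage-depleted marrow was sorted by c-Kit, Sca-1 and CD34 into long-term hematopoietic stem cells (LT-HSCs, Sca-1+ CD34-), multipotent progenitors (MPPs, Sca-1+ CD34+) and myeloid progenitors (Sca-1-), all c-Kit+. There were 2 control and 2 knockout arrays of LT-HSCs, 2 and 2 of MPPs, and 3 and 3 of myeloid progenitors. Each array held the marrow of 4 to 6 pooled mice, and same-numbered control and knockout pools came from littermates, which makes 7 pairs.

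Replication starts at origins bound by the origin recognition complex, where Cdc6 and Cdt1 load the Mcm2 to Mcm7 helicase in G1. In S phase Cdc45 and the GINS complex turn that helicase on, and primase and the polymerases alpha, delta and epsilon copy the strands with the sliding clamp Pcna and its loader. Many of these genes are targets of E2F factors and are transcribed mainly in dividing cells, so their RNA is commonly read as a sign of cycling, and most adult LT-HSCs are known to be quiescent. Dnmt1 travels with the clamp at the fork.

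Promoters are shown for 5 of the genes: 3 with words of the E2F factors, and Ccne1 and Chaf1b, the genes called between populations, without them. RefSeq windows of assembly GRCm38.p6, from 250 bases before to 50 bases after an annotated start, were found by symbol for 36 of the 44 listed genes, Chaf1a among them (42 windows). They were searched on both strands for the E2F words TTTCCCGC, TTTCGCGC, TTTGGCGC and TTTGCCGC, and for CCAAT, the word of factor NF-Y. An E2F word stood in 12 of 42 windows (28.6%), against 4.09% of 9089 windows of the genes tested and 2.26% of all 32851 windows. CCAAT stood in 23 of 42 (54.8%), against 37.3% of the windows of the genes tested. The 150 bases before the start are printed 5′ to 3′ on the coding strand, with E2F and CCAAT words in capitals, cut where a match runs past the edge. Mcm6 (chr1:128359706-128359855, minus strand) holds 3 E2F words, a pair of which overlap, and 2 CCAAT words. Mcm5 (chr8:75109359-75109508, plus strand) holds 2 overlapping E2F words, the first cut at the edge, and 2 CCAAT words. Orc1 (chr4:108579304-108579453, plus strand) holds 1 E2F word and 2 CCAAT words. Ccne1 (chr7:38107491-38107640, minus strand) and Chaf1b (chr16:93883751-93883900, plus strand) hold neither kind of word in the window.
Mcm6: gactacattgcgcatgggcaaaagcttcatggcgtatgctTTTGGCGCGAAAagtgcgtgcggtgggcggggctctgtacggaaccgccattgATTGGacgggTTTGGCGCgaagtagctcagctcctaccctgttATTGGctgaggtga
Mcm5: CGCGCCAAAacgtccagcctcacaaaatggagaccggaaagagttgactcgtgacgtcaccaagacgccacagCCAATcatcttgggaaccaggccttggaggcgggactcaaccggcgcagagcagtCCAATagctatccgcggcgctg
Orc1: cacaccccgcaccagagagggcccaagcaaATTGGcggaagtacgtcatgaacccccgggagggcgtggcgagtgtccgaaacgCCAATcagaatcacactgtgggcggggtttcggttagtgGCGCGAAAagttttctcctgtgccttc
Ccne1: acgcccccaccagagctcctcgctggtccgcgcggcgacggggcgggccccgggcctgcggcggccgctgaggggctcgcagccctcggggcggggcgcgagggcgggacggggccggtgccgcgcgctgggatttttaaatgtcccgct
Chaf1b: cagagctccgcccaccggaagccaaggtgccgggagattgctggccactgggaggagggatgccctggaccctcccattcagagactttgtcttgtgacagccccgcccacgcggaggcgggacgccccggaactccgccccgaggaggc
A match is a description of letters and not a measured binding site, and no match says only that these letters are not in this window. The other genes with an E2F word in a window were Cdc6, Cdt1, Lig1, Mcm3, Mcm7, Pola1, Pold1, Pole2 and Rfc3. A high density of CpG, the dinucleotide that Dnmt1 methylates, was common to these promoters, with an observed over expected CpG ratio above 0.6 in 33 of 42 windows (78.6%), against 69.0% for the genes tested.

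The values are intensities on a linear scale, and differences are on the log2(intensity + 16) scale after quantile normalization, with the standard error (SE) and the 95% interval of 1 limma fit. A difference passed when its p, adjusted over 8608 genes by the method of Benjamini and Hochberg, was under 0.05. On this scale a difference of 1 is a 2-fold change for a bright gene and more for a dim one. The p-values measure the spread between pools of mice, with the 2 littermate pools of a pair counted as separate. The median SD within groups was 0.25 for the replication genes and 0.35 over all genes tested. Control arrays gave Dnmt1 itself 1328 to 2219 units and knockout arrays 745 to 1305, without overlap, for an average difference of -0.63 ± 0.14 (SE, adjusted p = 0.19, 7 arrays per genotype). Its probe set may lie outside the deleted exons, which are not described in the labels, and checks the genotypes only in part.

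Libraries stood apart in several ways that touch the results. The ratio of 3' to 5' Gapdh probe sets, which rises as RNA breaks down, was above 4 on 5 arrays (both LT-HSC arrays of pair 1, myeloid progenitor controls 1 and 2 and myeloid progenitor knockout 2) and between 2.25 and 3.07 on the other 9. The same ratio for Actb did not set these 5 arrays apart. It was 0.75 to 1.18 on them and 0.83 to 1.13 on the other 9. The summed intensity of 11 B cell markers was 6842 to 14649 on LT-HSC arrays, 191 to 2771 on MPP arrays and 441 to 1239 on myeloid progenitor arrays. By limma 9 of 11 were higher in LT-HSCs than in MPPs, and 1 of the 11 (Ms4a1) lay below the filter level on the LT-HSC control arrays. Of the stem cell markers measured, 0 of 7 were higher in LT-HSCs than in MPPs. Cd34, for which the sort takes LT-HSCs as negative, and Flt3 were lower. In sorted bulk cells, fewer cells of a type and less RNA per cell cannot be told apart.

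**Figure D1:**
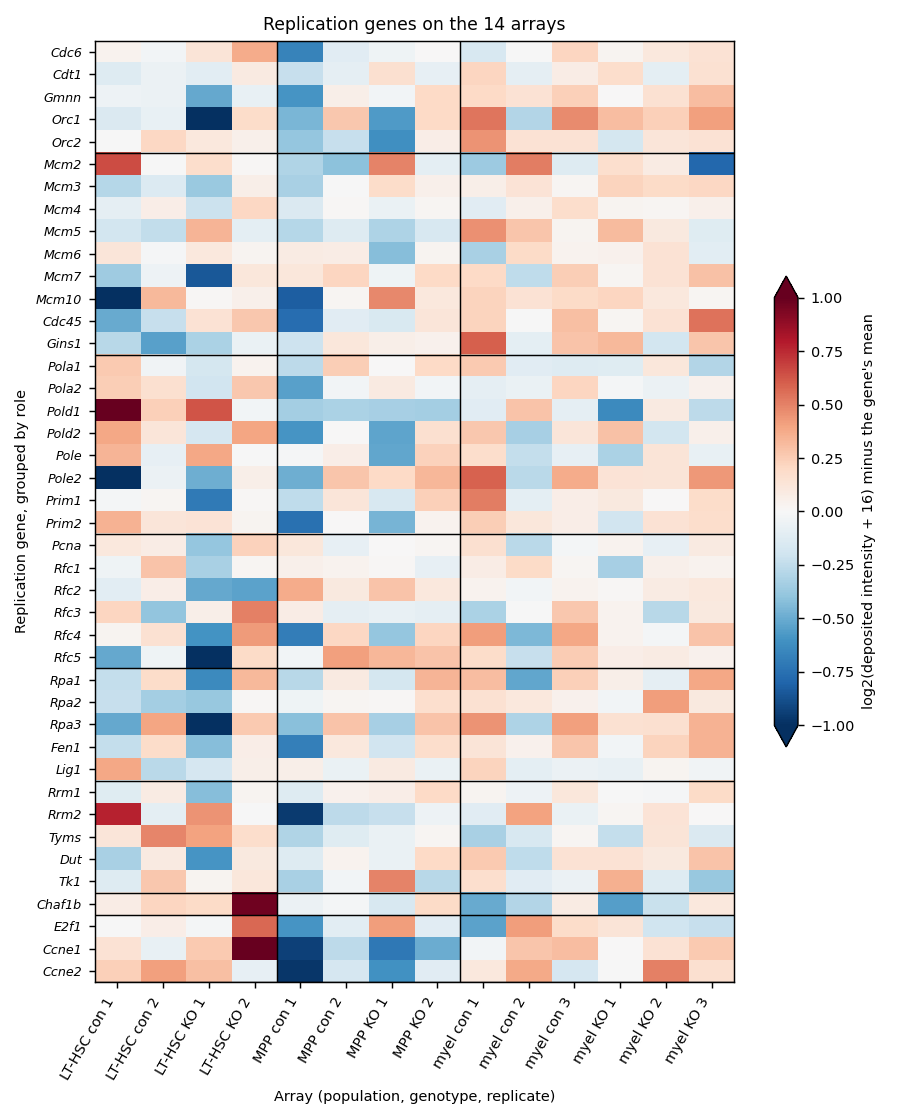
Each row is a replication gene, grouped by role, and each column is an array. Colour gives log2(deposited intensity + 16) minus the gene's mean over the 14 arrays, before normalization, and is clipped at -1 and 1. The first column of the MPPs (control 1) is blue for most genes, and no block of rows separates control from knockout columns in all 3 populations.

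No replication gene passed the test for a change after Dnmt1 was lost. No estimate from the probe sets used reached 1 in size on the log2(intensity + 16) scale defined above. By limma 0 of 42 passed the test in LT-HSCs, where 0.0697% of all genes did. In MPPs it was 0 of 42 (0.0697% of all genes), in myeloid progenitors 0 of 42 (0.0929%) and for the average of the 3 populations 0 of 42 (0.232%). With the littermate pairs as blocks the count was also 0 in each. At an unadjusted p under 0.05 there were 2 in LT-HSCs (4.76%, against 6.62% of all genes), 0 in MPPs (against 2.65%), 0 in myeloid progenitors (against 1.02%) and 2 for the average (4.76%, against 6.05%). The median difference of the replication genes was -0.03 for LT-HSCs, 0.14 for MPPs, 0.02 for myeloid progenitors and 0.06 on average, and the median over all genes lay between -0.02 and 0.00. Positive differences numbered 19 of 42 (45.2%, against 49.6% of all genes) in LT-HSCs, 32 (76.2%, against 49.7%) in MPPs, 27 (64.3%, against 45.8%) in myeloid progenitors and 31 (73.8%, against 48.3%) on average.

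Separation of the normalized arrays by genotype was also counted, for the probe sets used. In LT-HSCs 7 genes had both knockout arrays above both controls (Ccne1, Cdc45, Cdc6, Cdt1, Chaf1b, E2f1 and Gins1, 16.7%, against 12.9% of all genes), and Rfc1 and Rfc2 had both below (4.76%, against 12.1%). In MPPs 9 genes lay above (Cdc45, Cdc6, E2f1, Mcm10, Mcm2, Pola2, Rrm1, Rrm2 and Tyms, 21.4%, against 12.1%), and Mcm6 and Rfc1 lay below (4.76%, against 12.7%). In myeloid progenitors none of the 42 lay above (against 2.8%) or below (against 3.09%). T and NK cell markers also separated the genotypes in LT-HSCs, with summed intensities of 388 to 517 on control and 929 to 978 on knockout arrays. Of these markers 6 of 6 measured had a positive difference (against 49.6% of all genes), of which 0 passed. Their part in the LT-HSC values was not tested.

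**Figure D2:**
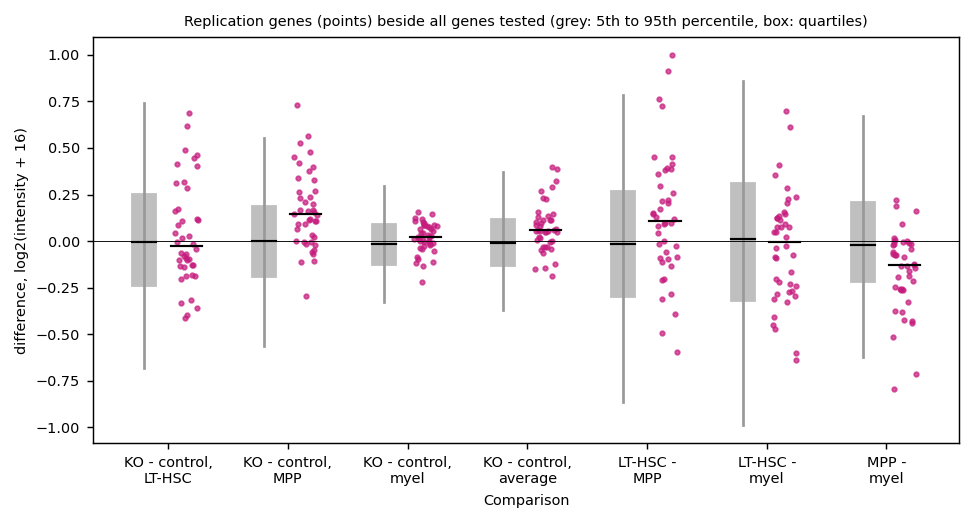
Points are the 42 replication genes, and grey bars are all 8608 genes tested (line from the 5th to the 95th percentile, box from the 25th to the 75th, black lines the medians). The vertical axis is the difference on the log2(intensity + 16) scale. The points of every genotype comparison lie between -0.41 and 0.73, and those of myeloid progenitors between -0.22 and 0.15.

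The intervals say how large a change these arrays could have missed. On average all 42 genes had a 95% interval inside -1 to 1, as did 93.1% of all genes, and 28 of 42 (66.7%) had one inside -0.5 to 0.5, against 36.7%. The same held inside -1 to 1 for 42 of 42 in myeloid progenitors (81.4% of all genes), 31 of 42 in LT-HSCs (45.5%) and 31 of 42 in MPPs (52.1%). The single estimates ran from -0.18 (Pold1) to 0.40 (Cdc45) on average, from -0.41 (Rfc2) to 0.69 (Ccne1) in LT-HSCs, from -0.30 (Mcm6) to 0.73 (Mcm10) in MPPs and from -0.22 (Pold1) to 0.15 (Cdc6) in myeloid progenitors. From the probe sets used, no gene had an estimate beyond 1 in size. Of all genes 3.78% did in LT-HSCs, 1.91% in MPPs, 0.709% in myeloid progenitors and 0.592% on average. The farthest bound of an average interval was 0.83 (Mcm10). In LT-HSCs the bounds reached 1.37 (Ccne1) and -1.37 (Orc1), and in MPPs 1.55 (Mcm10) and -1.04 (Orc1). Changes of up to that size in those genes lie within the intervals.

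**Figure D3:**
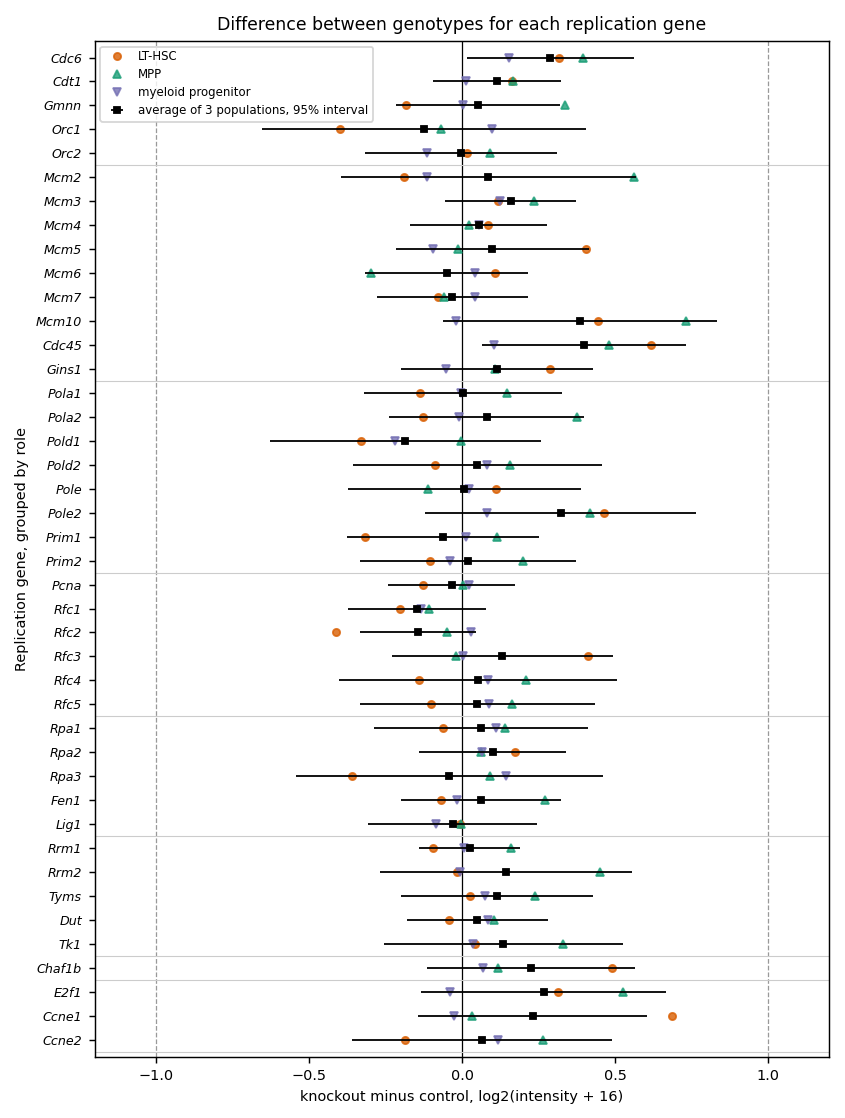
Black squares give the average difference of knockout minus control over the 3 populations with its 95% interval, on the log2(intensity + 16) scale, and coloured points give LT-HSCs, MPPs and myeloid progenitors. Dashed lines mark -1 and 1. All 42 average intervals lie between the dashed lines, and only those of Cdc45 and Cdc6 exclude 0 before adjustment.

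No gene had 1 direction in all 7 littermate pairs, where 2.14% of all genes were higher and 2.3% lower in every pair. Cdc45, Cdc6, Chaf1b and Pole2 were higher on the knockout array of 6 pairs (4 of 42, 9.52%, against 9.78% of all genes with at least 6). Pold1 and Rfc1 were lower in 6 (4.76%, against 11.5%). The differences of the knockout effect between populations were tested as interaction terms. By limma 0 of 42 passed between LT-HSCs and MPPs, between LT-HSCs and myeloid progenitors, and between MPPs and myeloid progenitors, and 0% of all genes passed in each. At an unadjusted p under 0.05 the counts were also 0 of 42, against 3.02%, 2.65% and 0.488% of all genes.

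In what follows the intensities of a gene are given in the order of the replicate numbers, control arrays against knockout arrays. Origin recognition and licensing genes had averages between -0.12 and 0.29. Cdc6, the loader that brings the helicase to the origin complex, was one of the pair with an unadjusted p under 0.05 on average. Cdc6 read 562 and 537 units on control and 602 and 712 on knockout arrays of LT-HSCs, 338 and 505 against 532 and 549 in MPPs, and 488, 547 and 638 against 558, 589.7 and 609 in myeloid progenitors. Both knockout arrays stood above both control arrays in LT-HSCs and in MPPs, and the 2 sets overlapped in myeloid progenitors. Its average was 0.29 ± 0.13 (adjusted p = 0.792), with differences of 0.32, 0.40 and 0.15 in LT-HSCs, MPPs and myeloid progenitors. Cdt1, its partner in loading, was at 0.11 ± 0.10. LT-HSC arrays gave Cdt1 1116 and 1174 units in controls and 1130.4 and 1303 in knockouts, MPP arrays 1038 and 1147 against 1369 and 1155, and myeloid progenitor arrays 1417, 1148 and 1285 against 1382, 1142 and 1357. The control and knockout arrays of Cdt1 overlapped in myeloid progenitors, and its lowest array was MPP control 1.

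Geminin (Gmnn), which blocks Cdt1 after S phase begins, was at 0.05 ± 0.12 on average. The intensity of Gmnn was 848 and 844 in control and 610.3 and 835 in knockout LT-HSCs, 579 and 914 against 861 and 1013 in MPPs, and 1009.9, 971 and 1041 against 882, 981 and 1095 in myeloid progenitors. All 4 LT-HSC arrays of Gmnn lay below all 6 myeloid progenitor arrays, as 8.55% of all genes did after normalization, but the difference of -0.28 ± 0.15 did not pass (adjusted p = 0.218). Orc1, the largest subunit of the origin complex, was measured with the largest error of the 42 genes. Orc1 read 35.5 and 38.0 units on control and 11.1 and 48.6 on knockout arrays of LT-HSCs, 25.5 and 52.5 against 22.4 and 49.5 in MPPs, and 66.3, 30.4 and 63.1 against 54.4, 51.2 and 59.6 in myeloid progenitors. LT-HSC knockout 1 gave the lowest Orc1 value of the 14, and the average was -0.12 ± 0.25. Orc2, another subunit, was at 0.00 on average. LT-HSC arrays gave Orc2 296 and 347 units in controls and 321 and 308 in knockouts, MPP arrays 224 and 251 against 189 and 312, and myeloid progenitor arrays 413, 331 and 330.2 against 261, 326 and 330.2. Its arrays of both genotypes overlapped in each population.

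Helicase genes held the average difference with the smallest p of the 42 genes. Cdc45, which joins the Mcm ring to start unwinding, was at 0.62 ± 0.28 for LT-HSCs, 0.48 ± 0.28 for MPPs and 0.10 ± 0.23 for myeloid progenitors. The intensity of Cdc45 was 98.3 and 122 in control and 164 and 180.1 in knockout LT-HSCs, 79.9 and 134 against 129.8 and 160.2 in MPPs, and 173, 146 and 184 against 148, 163 and 220.4 in myeloid progenitors. In LT-HSCs both knockout arrays stood above both control arrays, and in the other populations the deposited intensities overlapped. The average of 0.40 ± 0.15 did not pass (adjusted p = 0.667). Blocking on littermate pairs gave it an adjusted p of 0.187. Leaving out 1 array at a time moved it between 0.30 and 0.50. Mcm10, which helps to open the double strand, had the highest average after Cdc45, at 0.39 ± 0.21 (adjusted p = 0.865). Mcm10 read 71.7 and 215 units on control and 170.2 and 175 on knockout arrays of LT-HSCs, 88.2 and 170.5 against 241 and 182 in MPPs, and 199.6, 188 and 195 against 197, 183 and 171 in myeloid progenitors. It read low on LT-HSC control 1 and MPP control 1, and the pair differences there were 1.14 and 1.33 on the normalized scale. The other pairs of these populations were at -0.25 and 0.13, and the 3 myeloid progenitor pairs lay between -0.12 and 0.10.

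The 6 subunits of the Mcm2 to Mcm7 ring had averages between -0.05 and 0.16. LT-HSC arrays gave Mcm2 1006 and 631 units in controls and 718 and 639 in knockouts, MPP arrays 511 and 473 against 900.2 and 591, and myeloid progenitor arrays 489.5, 910.1 and 579.8 against 716, 673 and 361. Both MPP knockout arrays of Mcm2 stood above both MPP controls, and the genotypes overlapped in LT-HSCs and myeloid progenitors. Its probe set is of the _s_ kind, which may bind other transcripts, and another Mcm2 probe set gave a difference of the other sign in LT-HSCs. The intensity of Mcm3 was 980.2 and 1088 in control and 922 and 1245 in knockout LT-HSCs, 953 and 1194 against 1361 and 1239.7 in MPPs, and 1250.2, 1315 and 1215 against 1404, 1368 and 1381 in myeloid progenitors. Mcm3 was at 0.16 ± 0.10 on average, and its lowest arrays were LT-HSC knockout 1, MPP control 1 and LT-HSC control 1. Mcm5 read 593 and 568 units on control and 858 and 629 on knockout arrays of LT-HSCs, 551 and 616 against 542 and 603 in MPPs, and 933, 821 and 688 against 846, 723 and 618 in myeloid progenitors. Mcm5 was at 0.10 on average and its highest array was myeloid progenitor control 1. Mcm4, Mcm6 and Mcm7 were at 0.05, -0.05 and -0.03. Gins1, a subunit of the GINS complex, was at 0.11 ± 0.15. LT-HSC arrays gave Gins1 451 and 373 units in controls and 439.6 and 527 in knockouts, MPP arrays 474 and 596 against 576 and 567, and myeloid progenitor arrays 844, 513 and 674 against 692, 482 and 673. No LT-HSC or MPP array exceeded 596 units, and 4 of the 6 myeloid progenitor arrays did.

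Polymerase and primase genes had averages between -0.18 and 0.32. Pole2, the second subunit of polymerase epsilon, was at 0.32 ± 0.21 (adjusted p = 0.943). The intensity of Pole2 was 87.2 and 215 in control and 155 and 234 in knockout LT-HSCs, 156 and 276 against 259 and 286 in MPPs, and 345, 184 and 295 against 248, 247 and 309 in myeloid progenitors. LT-HSC control 1 gave the lowest Pole2 value of the 14, and the genotypes overlapped in each population. Pole read 250.2 and 183 units on control and 259 and 194 on knockout arrays of LT-HSCs, 193 and 205 against 131 and 231 in MPPs, and 222, 162 and 183 against 153, 214 and 184 in myeloid progenitors. Pole, the catalytic subunit of the same polymerase, was at 0.01, with both genotypes overlapping in every population. Pold1, the catalytic subunit of polymerase delta, was at -0.18 ± 0.21. LT-HSC arrays gave Pold1 1770.3 and 888 units in controls and 1169.8 and 736 in knockouts, MPP arrays 590.1 and 600.5 against 593 and 592, and myeloid progenitor arrays 694, 919.8 and 707 against 479, 803 and 625. The 4 MPP arrays lay between 590.1 and 600.5 units, whereas the 4 LT-HSC arrays ran from 736 to 1770.3. The intensity of Pola1 was 446 and 359.5 in control and 325 and 378 in knockout LT-HSCs, 306 and 441 against 371 and 425 in MPPs, and 446, 341 and 337 against 339, 402 and 299 in myeloid progenitors. Pola1, the catalytic subunit of polymerase alpha, was at 0.00 ± 0.15, with overlapping genotypes in each population. Pola2, Pold2, Prim1 and Prim2 were at 0.08, 0.05, -0.06 and 0.02.

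Clamp and clamp loader genes had averages between -0.15 and 0.13. Rfc2, a small subunit of the loader, had the smallest p of the 42 genes in LT-HSCs, at -0.41 ± 0.16 (adjusted p = 0.63). Rfc2 read 1576 and 1776 units on control and 1183 and 1162 on knockout arrays of LT-HSCs, 2193 and 1812 against 2064 and 1822 in MPPs, and 1737, 1664 and 1736 against 1707, 1797 and 1820.5 in myeloid progenitors. Both LT-HSC knockout arrays read below all other arrays of Rfc2, and the MPP and myeloid progenitor arrays of both genotypes overlapped. The test of whether the LT-HSC difference departs from that of myeloid progenitors gave -0.44 ± 0.21 (unadjusted p = 0.0548). Rfc1, the large subunit, was at -0.15 on average. LT-HSC arrays gave Rfc1 901 and 1130.5 units in controls and 739 and 942 in knockouts, MPP arrays 961 and 950.3 against 936 and 876, and myeloid progenitor arrays 978, 1061 and 942 against 731, 961 and 950.04. Both LT-HSC differences and 2 of 3 in myeloid progenitors were negative on the normalized scale. Pcna, the clamp that also holds Dnmt1, was at -0.03. The intensity of Pcna was 2651 and 2588 in control and 1871 and 2884 in knockout LT-HSCs, 2661 and 2324 against 2463 and 2496 in MPPs, and 2754, 2034 and 2419.8 against 2518, 2324 and 2613 in myeloid progenitors. Its readings of both genotypes overlapped in all 3 populations. Rfc3, Rfc4 and Rfc5 were at 0.13, 0.05 and 0.05.

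Genes of single strand binding and of Okazaki fragment joining had averages between -0.04 and 0.10. Rpa2 read 926 and 853 units on control and 830.2 and 1097 on knockout arrays of LT-HSCs, 1054 and 1103 against 1096 and 1221 in MPPs, and 1213, 1174 and 1118 against 1065, 1456 and 1162 in myeloid progenitors. Rpa2, of the complex that coats single strands, was at 0.10 ± 0.11 with overlapping genotypes in each population, and Rpa1 and Rpa3 were at 0.06 and -0.04. LT-HSC arrays gave Fen1 1906 and 2561 units in controls and 1669 and 2362 in knockouts, MPP arrays 1395 and 2417 against 1971 and 2546, and myeloid progenitor arrays 2462, 2324 and 2734 against 2209, 2633 and 2869.8. Fen1, the flap nuclease, was at 0.06, and MPP control 1 was its lowest array. The intensity of Lig1 was 2267 and 1430.5 in control and 1538 and 1799 in knockout LT-HSCs, 1799 and 1653 against 1837 and 1652 in MPPs, and 2016, 1611 and 1658 against 1643, 1762 and 1690.2 in myeloid progenitors. Lig1, the ligase that seals the fragments, was at -0.03 with overlapping genotypes in every population.

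The 5 genes of nucleotide supply all had averages at or above 0.02, and 0 of them passed. Rrm1, the large subunit of ribonucleotide reductase, was measured with the smallest error of the 42, at 0.02 ± 0.08, an interval of -0.14 to 0.19. Rrm1 read 2017 and 2325 units on control and 1629 and 2242 on knockout arrays of LT-HSCs, 2012 and 2259 against 2295 and 2516 in MPPs, and 2236, 2121 and 2371 against 2184, 2180.2 and 2509 in myeloid progenitors. Both MPP knockout arrays of Rrm1 stood above both controls, and the genotypes overlapped in the other populations. Rrm2, the small subunit that cycles with S phase, was at 0.14 ± 0.19. LT-HSC arrays gave Rrm2 2146 and 1166 units in controls and 1718 and 1246 in knockouts, MPP arrays 636 and 1041 against 1065 and 1209, and myeloid progenitor arrays 1156, 1656 and 1196 against 1271, 1379.7 and 1253. MPP control 1 was its lowest array and LT-HSC control 1 its highest. Tyms, which makes the thymidine nucleotide, was at 0.11 ± 0.15. The intensity of Tyms was 66.4 and 89.8 in control and 84.1 and 69.5 in knockout LT-HSCs, 45.2 and 53.6 against 56.1 and 60.8 in MPPs, and 44.4, 51.8 and 60.6 against 48.0, 66.6 and 52.2 in myeloid progenitors. The LT-HSC arrays of Tyms were the highest, apart from an overlap with myeloid progenitor knockout 2 that normalization removed, as 5.26% of all genes stood above MPPs and 5.99% above myeloid progenitors. The differences of 0.45 and 0.41 did not pass (adjusted p = 0.187 and 0.131). Tk1, the salvage kinase, was at 0.14 ± 0.18. Tk1 read 237 and 317 units on control and 266 and 283 on knockout arrays of LT-HSCs, 205 and 255 against 373 and 212 in MPPs, and 294, 239 and 250.03 against 338, 237 and 196 in myeloid progenitors. Its genotypes overlapped in each population. Dut, which removes uracil nucleotides, was at 0.05.

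The factors of S phase entry had averages between 0.07 and 0.27. E2f1, the transcription factor that switches on many of these genes, was at 0.27 ± 0.19. Another E2f1 probe set above the filter was at 0.00 on average. In LT-HSCs it was at -0.25, where the probe set used was at 0.31. LT-HSC arrays gave E2f1 495 and 519 units in controls and 489 and 745 in knockouts, MPP arrays 324 and 459 against 668 and 457, and myeloid progenitor arrays 338, 668 and 565 against 545, 429 and 419.6. Knockout arrays of E2f1 overlapped control arrays in each population on the deposited scale. The cyclins Ccne1 and Ccne2, which drive Cdk2 at the start of S phase, were at 0.23 ± 0.17 and 0.07 ± 0.20. Chaf1b, which deposits histones behind the fork, was at 0.23 ± 0.16 (adjusted p = 0.972).

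Between the sorted populations, averaged over both genotypes, 2 calls were made among the replication genes in all, for Ccne1 and Chaf1b. LT-HSCs against MPPs gave 1 of 42 (2.38%, against 4.96% of all genes), LT-HSCs against myeloid progenitors 1 of 42 (2.38%, against 14.1%), and MPPs against myeloid progenitors 0 of 42 (against 1.95%). The medians were 0.11, 0.00 and -0.13, and 26, 21 and 7 of the 42 differences were positive (against 48.6%, 50.9% and 47.4% of all genes). At an unadjusted p under 0.05 there were 8, 8 and 6 genes (19%, 19% and 14.3%), against 21.3%, 29.8% and 14.5% of all genes. The 3 comparisons share arrays. They count littermate pools as separate, though the deviations of paired arrays correlated (0.46 in LT-HSCs and 0.60 in MPPs). Their p-values may therefore be too small, and the littermate block was not run for them. Among control arrays alone 0 of 42 passed in each pair of populations, where 2.34%, 6.44% and 0.0813% of all genes did, and 3, 3 and 5 were under an unadjusted p of 0.05 (against 15.4%, 20% and 8.91%).

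Ccne1 (cyclin E1) was higher in LT-HSCs than in MPPs. The intensity of Ccne1 was 106 and 89.1 in control and 117 and 221 in knockout LT-HSCs, 42.0 and 76.5 against 51.3 and 62.5 in MPPs, and 92.7, 118 and 121 against 95.1, 107 and 116 in myeloid progenitors. All 4 LT-HSC arrays lay above all 4 MPP arrays, and all 4 MPP arrays lay below all 6 myeloid progenitor arrays, as 3.68% of all genes did. No replication gene stood higher in all MPP than in all myeloid progenitor arrays, as 3.03% of all genes did. The difference from MPPs was 1.00 ± 0.23 (adjusted p = 0.0219), and that between MPPs and myeloid progenitors was -0.79 ± 0.21 (adjusted p = 0.0747). The call was lost without LT-HSC control 1 (adjusted p = 0.0695), MPP control 1 (0.0819), MPP knockout 1 (0.0716) or the 5 arrays with a high Gapdh ratio (0.141), and with array weights (0.0765), and over all alternatives the difference stayed between 0.68 and 1.18. LT-HSC knockout 2, the highest Ccne1 reading, put the knockout difference in LT-HSCs at 0.69 ± 0.32 (adjusted p = 0.755), which was 0.35 without it. Ccne2 read 65.3 and 75.6 units on control and 68.9 and 49.1 on knockout arrays of LT-HSCs, 19.2 and 45.4 against 29.3 and 47.6 in MPPs, and 57.9, 73.6 and 45.3 against 52.6, 81.4 and 61.0 in myeloid progenitors. All 4 LT-HSC readings of Ccne2 stood above all 4 MPP readings as deposited, though not after normalization. The estimates were 0.76 ± 0.26 for LT-HSCs against MPPs (adjusted p = 0.108) and -0.71 ± 0.23 for MPPs against myeloid progenitors (adjusted p = 0.167).

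Chaf1b was higher in LT-HSCs than in myeloid progenitors. LT-HSC arrays gave Chaf1b 305 and 339 units in controls and 334 and 584 in knockouts, MPP arrays 277 and 285 against 258 and 333, and myeloid progenitor arrays 199, 233 and 308 against 192, 246 and 312. On the deposited scale LT-HSC control 1 lay below 2 of the myeloid progenitor arrays, and after normalization the groups did not overlap, as 5.99% of all genes did in that direction. The difference was 0.61 ± 0.19 (adjusted p = 0.0443). This call lay close to the threshold. Without 1 array it was lost in 10 of 14 cases, namely LT-HSC controls 1 and 2 (adjusted p = 0.0956 and 0.0699), LT-HSC knockout 2 (0.113), MPP controls 1 and 2 (0.056 and 0.0559), myeloid progenitor controls 1 and 2 (0.103 and 0.0601) and myeloid progenitor knockouts 1, 2 and 3 (0.113, 0.081 and 0.0521). It was also lost with median centring (0.0577), no normalization (0.0757), no filter (0.0533), array weights (0.174) and without the 5 arrays with a high Gapdh ratio (0.251), and the difference stayed between 0.46 and 0.77.

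**Figure D4:**
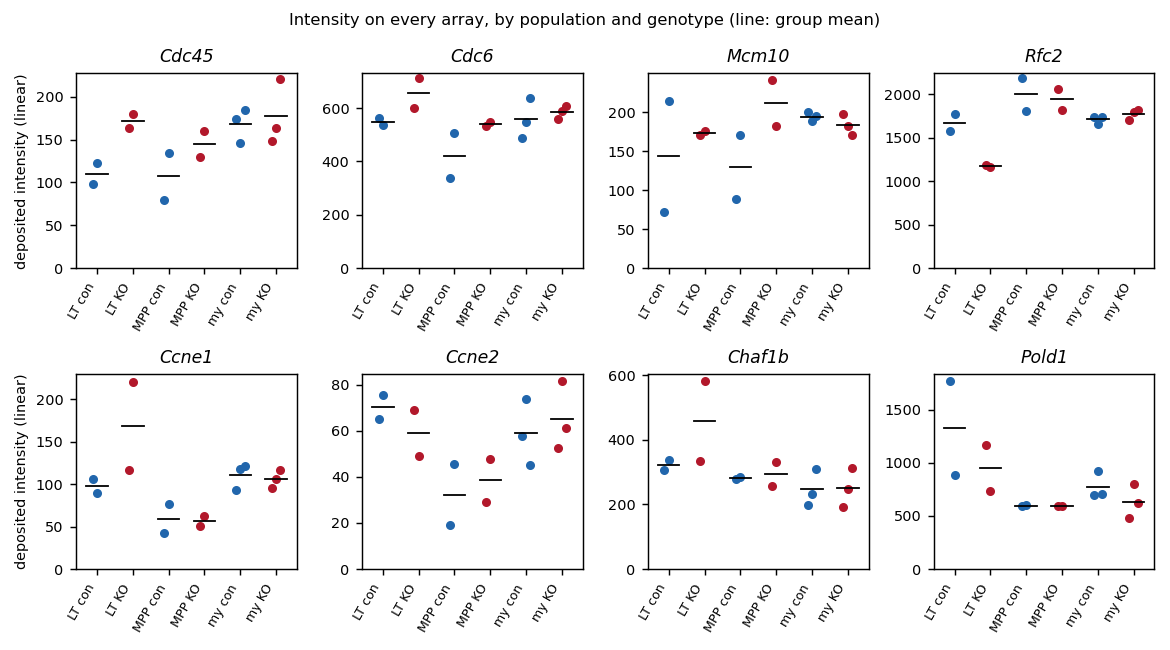
Each point is the deposited intensity of 1 array on a linear axis that starts at 0, blue for control and red for knockout, and the line is the group mean. Ccne1 is lower in all 4 MPP arrays than in all other arrays, and both LT-HSC knockout readings of Rfc2 lie below its other readings. Mcm10 control readings of LT-HSCs and MPPs spread widely.

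Other genes came near the threshold between populations. Pold1 was at 0.91 ± 0.27 in LT-HSCs against MPPs (adjusted p = 0.0685) and at 0.70 ± 0.24 against myeloid progenitors (adjusted p = 0.0722). Its other probe set gave 0.81 and 0.86, and with probe sets of the _s_ and _x_ kind left out Pold1 passed in both comparisons (adjusted p = 0.0422 and 0.00803). Without both arrays of LT-HSC pair 1, which have a high Gapdh ratio, the differences of the probe set used were 0.39 and 0.18 (adjusted p = 0.456 and 0.672). Each LT-HSC group then holds 1 array, as it does without the 5 arrays with a high Gapdh ratio, and the fit assumes that this array varies like the other groups. Rfc2 was at -0.39 ± 0.11 in LT-HSCs against MPPs (adjusted p = 0.0676), with no overlap between the 4 and 4 arrays, as 5.87% of all genes showed in that direction. Rrm2 was at 0.72 ± 0.25 in LT-HSCs against MPPs (adjusted p = 0.113), and its other probe sets gave 0.03 and 0.60. Gins1 and Pole2 were at -0.47 ± 0.17 and -0.64 ± 0.24 in LT-HSCs against myeloid progenitors (adjusted p = 0.0867 and 0.0981). In MPPs against myeloid progenitors 6 genes had a negative difference at an unadjusted p under 0.05 (14.3%, against 7.35% of all genes), namely Ccne1, Ccne2, Cdc45, Fen1, Mcm5 and Orc2. B cell markers summed higher on LT-HSC arrays than on those of both other populations, as given above. Erythroid markers summed to 1592 to 5789.8 on LT-HSC arrays, 351 to 1757 on MPP arrays and 2689 to 3825 on myeloid progenitor arrays. The MPP control arrays (351 and 546) were the lowest, and both MPP knockout arrays (1710 and 1757) exceeded LT-HSC control 1 (1592). The lowest readings of Ccne1 and Ccne2 were also on an MPP control array. The part of either marker list in these results was not tested.

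The median shift in MPPs moved with single arrays. On MPP control 1, 35 of 42 replication genes were below their own mean, with a median deviation of -0.33, and on the other 13 arrays the median deviation lay between -0.06 and 0.17. The median over all genes on MPP control 1 was -0.03. Without MPP control 1 the median knockout difference in MPPs was -0.01, with 20 of 42 positive, and without MPP control 2 it was 0.34, with 35 positive. In LT-HSCs the median was 0.16 without both arrays of pair 1, which leaves 1 array per genotype and the spread to the other groups, with 30 of 42 positive. In all of these 0 of 42 passed. Erythroid markers also moved with genotype in MPPs, with summed intensities of 351 to 546 on control and 1710 to 1757 on knockout arrays. Of these markers 7 of 7 measured had a positive difference (against 49.7% of all genes), of which 0 passed. The summed T and NK cell and mast cell markers also separated the genotypes in MPPs, at 519 to 723 against 743 to 775 and 276 to 549 against 571 to 1023. Of the 7 T and NK cell markers with a probe set, 4 lay below the filter level on all MPP arrays. Most of their sum came from Nkg7, at 361 and 553 on control and 575 and 533 on knockout arrays, which overlap. The part of the erythroid, T and NK cell and mast cell markers in the MPP values was not tested.

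**Figure D5:**
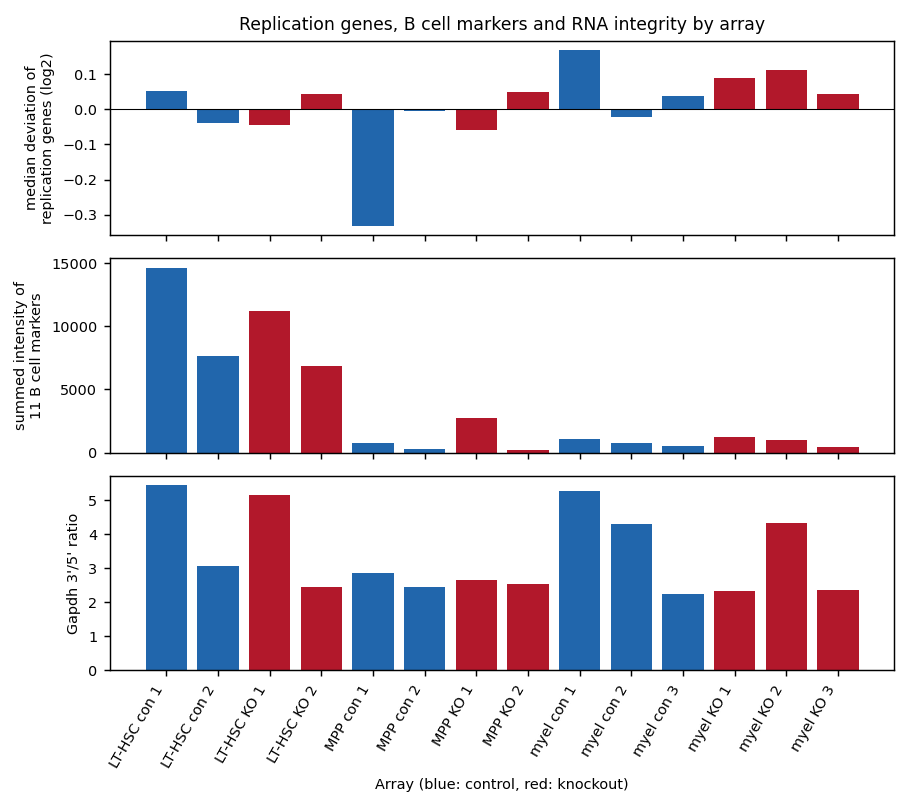
For each of the 14 arrays the panels give the median deviation of the 42 replication genes from their own means (log2 scale, after normalization), the summed intensity of 11 B cell markers and the Gapdh 3'/5' ratio. MPP control 1 has a median deviation of -0.33, the 4 LT-HSC arrays have the highest B cell sums, and 5 arrays have a Gapdh ratio above 4.

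Probe sets of the same gene did not always give the same sign. Of the 23 genes with more than 1 probe set above the filter, 13 had opposite signs for the knockout difference in LT-HSCs, 4 in MPPs, 11 in myeloid progenitors and 4 on average (Mcm3, Orc2, Prim1 and Rrm1). Probe sets of 1 gene differed by a median of 0.40 in LT-HSCs and 0.11 on average. Some probe sets above the filter that were not used gave larger knockout differences than those given above. An unused Rpa2 probe set was at 1.07 in LT-HSCs, and unused Mcm2 and Cdt1 probe sets were at 0.51 and 0.47 on average. The lowest unused values were -0.77 in LT-HSCs (Mcm7) and -0.34 on average (Rfc1). The population differences, averaged over both genotypes, had the same limit. Of the same 23 genes, 11 had opposite signs in LT-HSCs against MPPs. The count was 9 in LT-HSCs against myeloid progenitors and 7 in MPPs against myeloid progenitors. The widest gap was 0.97 (Mcm3, LT-HSCs against MPPs).

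Other genes of the same machinery gave the same count for the knockout. Of 34 further replication and S phase genes measured, from a list of 43, 0 passed by limma on average or in any population, and their average median was 0.01. Recql4, a helicase of early replication, and Dna2, a nuclease of Okazaki fragments, had the smallest p on average. Asf1b, which hands histones to chromatin assembly factor 1, was higher in LT-HSCs, by 1.08 ± 0.22 over MPPs (adjusted p = 0.0116) and by 0.64 ± 0.20 over myeloid progenitors (adjusted p = 0.047). Of 17 checkpoint genes measured (of 22 listed) 0 passed for the knockout, and Timeless, which protects the fork, was lower in LT-HSCs than in myeloid progenitors, at -0.56 ± 0.15 (adjusted p = 0.0279). At an unadjusted p under 0.05 the knockout counts on average were 1 of 34 and 0 of 17, against 6.05% of all genes. For the population differences of Asf1b and Timeless, the shares of all genes that passed stand beside. They were 4.96% in LT-HSCs against MPPs and 14.1% in LT-HSCs against myeloid progenitors.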

How the data were processed

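RNA of sorted marrow cells, amplified and biotin-labelled per the labels, was measured on 14 Affymetrix arrays. The deposited table holds 1 linear intensity per probe set and array, with the authors' steps from the scans not given in the sources used here. Of 22690 probe sets, 20380 have 1 gene symbol in the platform annotation, 691 several and 1555 none, and 64 are controls. Intensities were taken as log2(intensity + 16) and quantile normalized. Genes were kept where their brightest probe set exceeded the 40th percentile of all non-control probe sets on at least 2 arrays. One limma fit (version 3.58.1, R 4.3.3) of 6 group means with 8 residual degrees of freedom gave every comparison, two-sided, with Benjamini-Hochberg adjustment over 8608 genes. The fit was tested on simulated data with independent errors on every array, so that test does not cover the correlation of paired arrays. The number of arrays limits the precision. No batch is given in the labels used here.

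The members and gene lists were chosen with earlier results of these data known. All members are named, and those with values on every array were picked by role and by small p. Same-numbered pools are littermates per the labels, and the deviations of paired arrays correlated at 0.46 (LT-HSCs), 0.60 (MPPs) and 0.20, 0.54 and 0.61 (myeloid progenitors). The pairs as a block were an alternative fit, as were other pseudocounts, normalizations, filters, probe set rules, array weights and leaving out arrays. Figures were drawn with matplotlib 3.10.9.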

Additional observations from a re-analysis of the deposited data

How the results depend on the processing

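In the 7 comparisons of the knockout 0 of 42 replication genes passed under every alternative that could be run, with the littermate pairs as replicate block included, which changed no call (Cdc45 on average, adjusted p = 0.187). The block on replicate numbers shared across populations, added after seeing the data, as were both exclusions named last, left the population counts at 1, 1 and 0. In LT-HSCs against MPPs the count was 2 with median centring, 2 without normalization, 3 with the mean of all probe sets, 2 without _s_ and _x_ probe sets and 0 with array weights. In LT-HSCs against myeloid progenitors it was 0 without normalization, 0 without the filter, 2 with the mean of all probe sets, 3 without _s_ and _x_ probe sets and 0 with array weights, and with median centring the 1 call was Rfc2 in place of Chaf1b. In MPPs against myeloid progenitors it was 1 (Ccne1) with the mean of all probe sets and 1 with array weights. Among controls LT-HSCs against myeloid progenitors gave 1 (Pold1) without _s_ and _x_ probe sets.

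Leaving out 1 array moved the counts between 0 and 5 (LT-HSCs against MPPs, 5 without LT-HSC knockout 2), 0 and 4 (LT-HSCs against myeloid progenitors, 4 without LT-HSC knockout 2) and 0 and 3 (MPPs against myeloid progenitors, 3 without MPP control 2). Among controls they ran from 0 to 2, 0 to 2 and 0 to 1. The median knockout difference ran from -0.029 to 0.090 for LT-HSCs, from -0.0055 to 0.34 for MPPs and from -0.0058 to 0.13 on average. Without the 5 arrays with a Gapdh ratio above 4, the LT-HSC median was 0.16 and LT-HSCs gave 0 against MPPs and 0 against myeloid progenitors. Without LT-HSC pair 1 the LT-HSC median was 0.16, and MPPs against myeloid progenitors gave 1. The 203 differences of 29 named genes gave 5460 combinations of a difference with 1 of 28 alternatives. Both calls (Ccne1 and Chaf1b) were lost in some, 20 combinations in all, and 12 uncalled differences gained a call in 23. No called value changed sign, and 119 uncalled differences did so in 356 combinations. Where a group lost 1 of its 2 arrays, the fit assumes that the lone array varies like the other groups. The cause was not tested.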

Other observations

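Genes that govern entry into the cycle were compared between the populations. Of 25 G1 to S control genes measured, 2 were higher in LT-HSCs than in MPPs and 6 were higher than in myeloid progenitors by limma, and 0 were lower in either, against 4.96% and 14.1% of all genes called. Ccnd3, a D cyclin that is also high in B cells, was higher by 1.55 (adjusted p = 0.00297) and 1.84. Cdkn1a, the p21 inhibitor of cyclin-dependent kinases, was higher by 0.84 (adjusted p = 0.0494) and 1.67. Fbxw7, which marks cyclin E for destruction, E2f3, Rbl2 and Ccna2 were higher than in myeloid progenitors by 1.31, 1.21, 0.96 and 0.59. B cell markers were higher in the same arrays, and their part in these values was not tested. For the knockout 0 of the 25 passed by limma on average (against 0.232% of all genes). At an unadjusted p under 0.05 there were 4 of 25, a larger share than the 6.05% of all genes. Ccnd1, Cdkn1a and Rb1 read higher on the knockout array of all 7 littermate pairs as deposited, and no gene of this list read lower in all 7. The share of all genes was counted only after normalization, with 2.14% higher in every pair and 2.3% lower. It is therefore not on the same scale as the deposited readings.

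Mitosis genes, which act after replication, gave 0 of 19 for the knockout by limma in each population (against 0.0697%, 0.0697% and 0.0929% of all genes). At an unadjusted p under 0.05 there were 3 for LT-HSCs (against 6.62%), 0 for MPPs (against 2.65%) and 0 for myeloid progenitors (against 1.02%). In LT-HSCs 2 of 19 had a positive difference, against 49.6% of all genes, with a median of -0.23. Within the pairs 2 of 19 were positive in LT-HSC pair 1, both of whose arrays have a high Gapdh ratio, and 7 of 19 in pair 2. Ttk, a spindle checkpoint kinase, was at -1.35 (adjusted p = 0.268). In MPPs 15 of 19 were positive, against 49.7% of all genes, and this rested on pair 1, which holds MPP control 1: 18 of 19 were positive in that pair and 5 of 19 in pair 2.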
